A study of Homo sapiens with 6 samples.

Results

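The proteasome genes described here were the protein-coding rows of the count table whose symbol is PSMA, PSMB, PSMC, PSMD, PSME, PSMF or PSMG followed by a number alone. The rule took 48 genes of the 62710 in the table. It used the annotation and no measured value. Another 2 protein-coding rows, PSMC3IP and PSME3IP1, carry further letters after the number and were left out, since they encode partner proteins.

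The libraries came from HCT116, a human colon cancer cell line, and were made to see which transcripts differ once the RNA-binding protein IGF2BP3 is depleted. Lentiviral vectors had been used to make stable lines, selected with puromycin, so that every library came from transduced cells. The 3 sh-NC libraries carried a scrambled shRNA and the 3 sh-IGF2BP3 libraries an shRNA against IGF2BP3. Total RNA was used with a TruSeq kit, and nothing in the labels says that the 3 libraries of a group came from separate cultures, so p-values measure only the spread between these libraries. The labels name no clone and no further shRNA.

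The proteasome is the large protease that degrades proteins tagged with ubiquitin. Its 20S core is a barrel of stacked rings, with alpha subunits at the gates and beta subunits, including the proteolytic ones, inside. The 19S particle caps the barrel: its base holds the ATPases that unfold substrates and thread them into the core, and its lid holds the enzyme that cuts ubiquitin off. Dedicated chaperones build both parts. In cells exposed to interferon, inducible beta subunits replace the constitutive proteolytic ones to form the immunoproteasome, which favours peptides for class I presentation. The transcription factors NFE2L1 and NFE2L2 are known to act on proteasome genes through antioxidant response elements. The particle is a drug target in myeloma.

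The 6 libraries held 16146718 to 23576469 counts, and proteasome genes took 0.415% to 0.632% of them. Levels are given as CPM, counts put on a common library size with TMM factors, and comparisons between genes as FPKM, which also divides by gene length. Differences were tested with edgeR's quasi-likelihood test over 16753 genes with Benjamini-Hochberg (BH) adjustment, and a gene was called at a fold change over 1.5 with an adjusted p under 0.05. The targeted gene, IGF2BP3, read 90.3, 84.1 and 70.3 CPM under sh-NC against 60.2, 52.3 and 55.8 CPM under sh-IGF2BP3. The groups did not overlap, in the direction the labels give, with a log2 fold change of −0.54 (SE 0.18, edgeR adjusted p = 0.126), and of −0.26 once trends with GC content and length were removed. With the trends removed, leaving out 1 library gave −0.39 to −0.087 for IGF2BP3, the value nearest 0 coming without sh-NC 1 (edgeR adjusted p = 0.789). GC content moved with the groups: per 10 percentage points of GC, log2 CPM over all genes changed by −0.23 to −0.05 in sh-NC libraries and by −0.01 to 0.35 in sh-IGF2BP3 libraries. Its part in the results was not tested, and the median of each class is also given with those trends removed. Among the markers, 5 of 6 epithelial genes were well expressed and CDH17 stayed between 0.284 and 1.41 CPM, while 13 of 14 leukocyte, fibroblast and endothelial markers stayed at or under 2.66 CPM. The exception was COL1A1, at up to 58.5 CPM, with COL1A2 and LUM at 0 counts in every library.

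Of the 48 proteasome genes, 45 passed the filter on low counts and 3, PSMA8, PSMB8 and PSMB11, did not. PSMA8, the alpha subunit of germ cells, had 0 counts in all 6 libraries, which allows up to 0.124 to 0.196 CPM (counting error only). PSMB11, the thymus subunit, had 1 count in each of 3 libraries and 0 in the others. Among the tested genes, mean FPKM ran from 0.312 for PSMA2 to 133 for PSMD2, the base subunit that receives ubiquitin shuttles. The beta ring was the most even of the classes with more than 2 tested genes, with 30.2 FPKM for PSMB2 and 88.9 FPKM for PSMB5 at its ends. PSMB5 (88.9 ± 23.1 FPKM, SD, n = 6), PSMB3 (85.4 ± 35.5) and PSMB4 (84.5 ± 21.0) could not be ranked beyond their spread. In the alpha ring PSMA7 reached 92.5 FPKM, PSMA3, PSMA4 and PSMA5 lay between 20.4 and 33.0 FPKM, and PSMA1, PSMA6 and PSMA2 were at 4.37, 0.997 and 0.312 FPKM. The ring holds its 7 somatic subunits in equal number, so these transcript values did not follow the make-up of the particle.

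**Figure D1:**
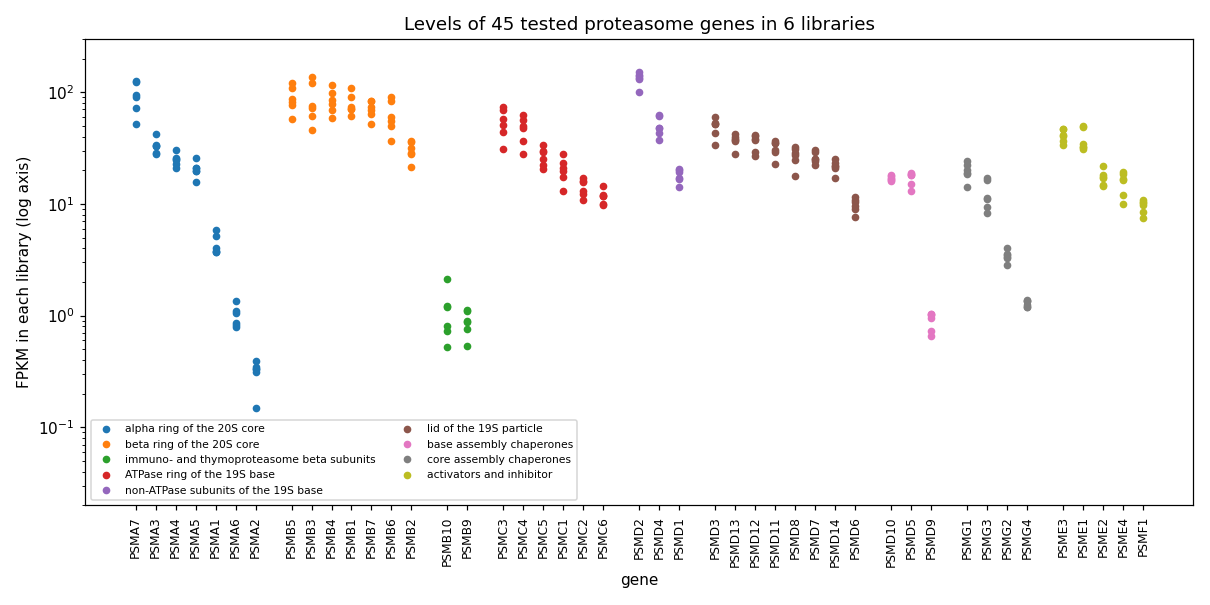
FPKM on a log axis for the 45 tested proteasome genes, ordered within each class by mean level, with 1 point for each of the 6 libraries and colours for the 9 classes. Most genes sit between 9.49 and 133 FPKM, while PSMA1, PSMA6, PSMA2, PSMD9, PSMG2, PSMG4, PSMB9 and PSMB10 lie lower.

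Annotation set some of these genes apart. In PSMB10, PSMA1, PSMD9, PSMA2 and PSMA6, between 14.1% and 34.8% of exonic bases in GENCODE 29 also belong to another protein-coding gene on the same strand, a split at 10% chosen after the values were seen. These 5 had mean FPKM of 0.312 to 4.37. The other 40 tested genes ran from 0.881 to 133 FPKM with a median of 26.8. Among those 40, PSMB9, PSMG4 and PSMG2 read 0.881, 1.29 and 3.43 FPKM, within the range of the 5. Over all protein-coding genes, 9.46% share more than 10% of their exonic bases on 1 strand. The overlapping gene took at most 9 counts in any library for PSMA1, PSMA2, PSMA6 and PSMD9, and 58 to 138 counts for PSMB10. The sources do not say how reads that fit both genes were counted, so the levels of these 5 genes are uncertain. Pseudogenes were a smaller matter: 42 pseudogene rows carry names of 16 proteasome genes, 21 of these rows held 0 counts, and only for PSMA2 (9.09%), PSMA6 (5.43%), PSMD10 (4.38%), PSMC1 (1.87%) and PSMA1 (1.23%) did they sum to at least 1% of the gene's own counts. The use of strand is not given in the sources used here, and PSMA3 lies wholly within ARMH4 on the opposite strand and overlaps PSMA3-AS1, which had a mean of 678 counts against 1901 for PSMA3.

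Most proteasome genes read higher in sh-IGF2BP3 libraries, and none reached the thresholds. In bulk libraries a different mix of cells and a different amount of RNA per cell cannot be told apart. The log2 fold change was above 0 for 41 of the 45 tested genes, where 49% of all tested genes were above 0. The median over the 45 was 0.36, against −0.01 over all tested genes and 0.02 over protein-coding ones, and values ran from −0.40 for PSME4 to 0.92 for PSMB3. edgeR called 0 proteasome genes, as it called 0% of all genes, and the smallest adjusted p was 0.103. At an unadjusted p under 0.05, 15 proteasome genes were higher and 0 lower, where 13.6% of all genes were higher and 8.54% lower. In 14 genes every sh-IGF2BP3 library lay above every sh-NC library and in 0 below, where the shares of all genes were 13.2% and 11%. By DESeq2, 2 proteasome genes, PSMB3 and PSMB6, were called higher and 0 lower, against 4.29% and 1.05% of the genes it tested, while limma on FPKM called 0. Without the filter on low counts edgeR called PSMB3, PSMB6 and PSMC3 higher and 0 lower, against 1.89% and 0.413% of all genes.

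**Figure D2:**
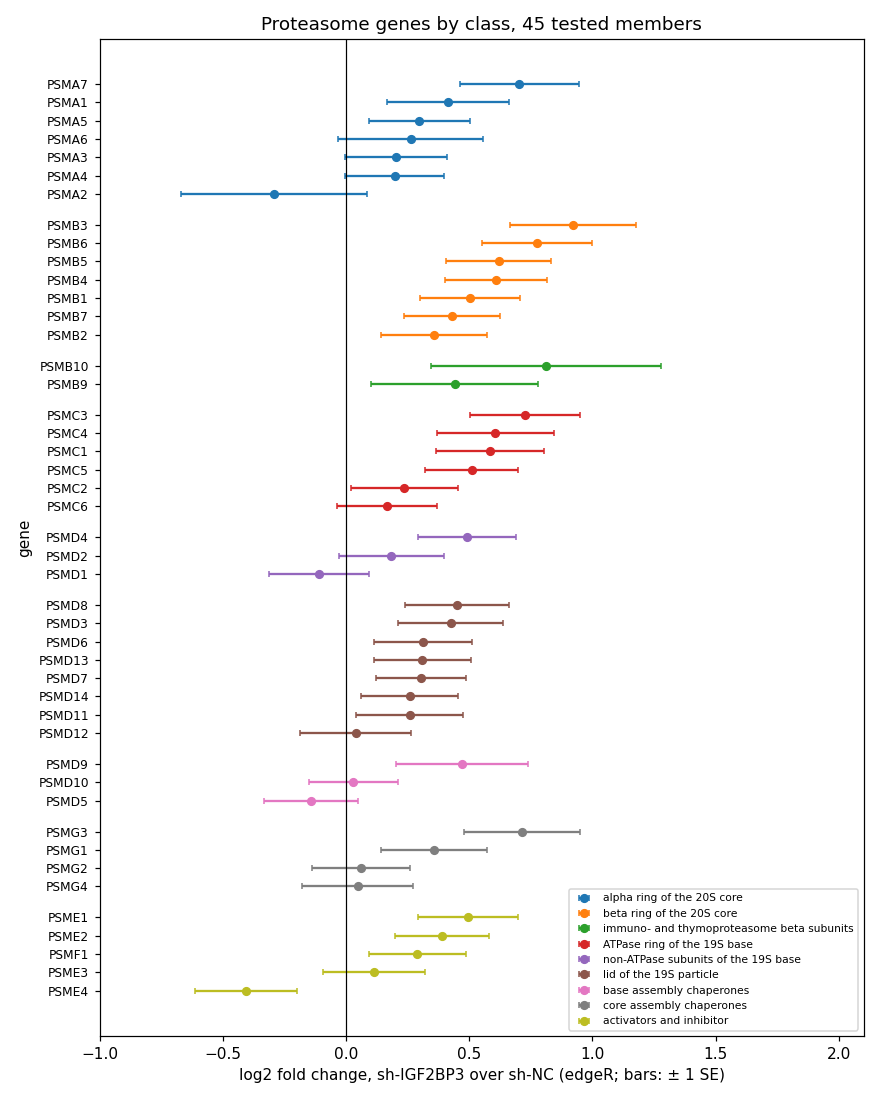
Log2 fold change of sh-IGF2BP3 over sh-NC for the 45 tested genes, each point an edgeR estimate with bars of ± 1 SE from 3 libraries a group, coloured and grouped by class. All 7 beta ring, all 6 ATPase and all 8 lid genes lie above 0, and PSMA2, PSMD1, PSMD5 and PSME4 lie below it.

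The counts rested on a few libraries. Of the 45 genes, 36 had their lowest level in sh-NC 3, as had 24.2% of all tested genes, and 33 their highest in sh-IGF2BP3 2, as had 17.8%. The median deviation of the proteasome genes from their own mean was 0.10, −0.15 and −0.49 on the log2 CPM scale in sh-NC 1, 2 and 3. It was 0.11, 0.36 and 0.11 in sh-IGF2BP3 1, 2 and 3. sh-NC 1 was thus level with sh-IGF2BP3 1 and sh-IGF2BP3 3, and 30 of the 45 genes (66.7%) were higher in sh-NC 1 than in the lowest sh-IGF2BP3 library, a share close to the 70.2% of all tested genes. Without sh-NC 1, 13 proteasome genes were called higher and 0 lower, where 10% of all genes were called higher and 5.67% lower. Those 13 were PSMA7, PSMB3, PSMB4, PSMB5, PSMB6, PSMC1, PSMC3, PSMC4, PSMC5, PSMD3, PSMD4, PSMD8 and PSMG3. Leaving out any other single library gave 0 called proteasome genes, also without sh-IGF2BP3 3, when 1.23% of all genes were called higher and 0.0805% lower. At an unadjusted p under 0.05, 26 (57.8%) were higher without sh-NC 1, where 17.7% of all genes were. Without sh-NC 2 there were 6 (13.3%, against 7.02% of all genes). Without sh-NC 3 there were 4 (8.89%, near the 7.58% of all genes), and the median log2 fold change was 0.16. Without sh-IGF2BP3 1 and without sh-IGF2BP3 3 there were 14 each (31.1%), against 8.74% and 14.3% of all genes, and without sh-IGF2BP3 2 there were 5 (11.1%, against 7.53%).

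**Figure D3:**
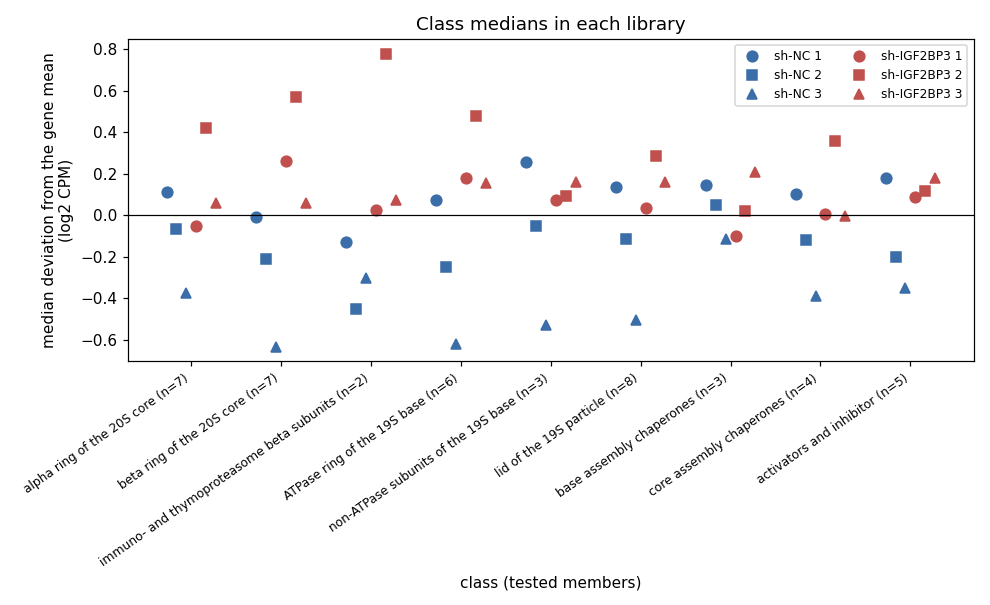
Median deviation from the gene's own mean over the 6 libraries, in log2 CPM, for the tested genes of each class, with 1 marker per library (blue sh-NC, red sh-IGF2BP3). sh-NC 3 is the lowest marker in every class except the immunoproteasome subunits, at −0.63 for the beta ring and −0.11 for the base chaperones, where sh-IGF2BP3 1 lies close to it.

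The beta ring, which holds the proteolytic sites, had the highest median of the classes with more than 2 tested genes. Its median log2 fold change was 0.61, all 7 genes were above 0, 6 were higher at an unadjusted p under 0.05 and 5 did not overlap between the groups. Of all tested genes, 49% were above 0, 13.6% were higher at that p and 13.2% were higher without overlap. PSMB3, a structural beta subunit (ENSG00000277791; chromosome 17, 38752741 to 38764225, plus strand), read 91.0, 69.8 and 49.1 CPM under sh-NC and 141, 169 and 87.9 CPM under sh-IGF2BP3. The groups overlapped, because sh-IGF2BP3 3 lay under sh-NC 1. The log2 fold change was 0.92 (SE 0.26, 1.89-fold, edgeR adjusted p = 0.103). PSMB1, another structural subunit, was higher by a log2 fold change of 0.50 and PSMB4 by 0.61, without overlap in either. PSMB2, structural as well, had the smallest value of the ring at 0.36 and overlapped. With GC and length trends removed the ring's median was 0.56, and 6 of 7 were again higher at an unadjusted p under 0.05, where 6.77% of all genes were. Without a library the count was 7 for sh-NC 1, 3 for sh-NC 2 and 2 for sh-NC 3, where the shares of all genes were 17.7%, 7.02% and 7.58%. It was 6 for sh-IGF2BP3 1, 2 for sh-IGF2BP3 2 and 5 for sh-IGF2BP3 3, where those shares were 8.74%, 7.53% and 14.3%.

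The constitutive proteolytic subunits, PSMB6 (caspase-like), PSMB7 (trypsin-like) and PSMB5 (chymotrypsin-like, the main target of bortezomib), were all higher without overlap. PSMB6 (ENSG00000142507; chromosome 17, 4796144 to 4798502, plus strand) read 83.5, 70.8 and 48.7 CPM under sh-NC and 120, 138 and 89.9 CPM under sh-IGF2BP3. Its log2 fold change was 0.77 (SE 0.22, edgeR adjusted p = 0.108). PSMB5 (ENSG00000100804; chromosome 14, 23016543 to 23035230, minus strand) read 133, 116 and 80.9 CPM against 168, 199 and 139 CPM. The sh-NC 1 and sh-IGF2BP3 3 libraries were the closest across groups for PSMB5, and the log2 fold change was 0.62 (SE 0.21, edgeR adjusted p = 0.134). PSMB7 read 130, 111 and 85.6 CPM against 147, 158 and 135 CPM, a log2 fold change of 0.43 (SE 0.20, edgeR adjusted p = 0.213). For each of the 3 genes a two-sided exact permutation test gave p = 0.1, the smallest that 3 libraries against 3 can give. That value follows from the lack of overlap and adds nothing to it. Over all tested genes, 13.2% were higher and 11% lower without overlap.

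Their inducible counterparts had few counts. In PSMB10, 34.8% of exonic bases also belong to another gene, so its level and any share that includes it are uncertain. PSMB9, which replaces PSMB6, read 1.86, 2.85 and 2.76 CPM under sh-NC and 3.66, 3.92 and 2.61 CPM under sh-IGF2BP3. PSMB10, which replaces PSMB7, read 2.09, 0.826 and 1.07 CPM against 1.32, 3.66 and 1.99 CPM. The groups overlapped for both genes, with log2 fold changes of 0.44 (SE 0.34) and 0.81 (SE 0.47) and edgeR adjusted p of 0.457 and 0.316. The median of these 2 was 0.63, 0.45 with the trends removed, when PSMB10 read 0.39, and 0.33 without sh-IGF2BP3 2 when no trend was removed. PSMB8, which replaces PSMB5, had 5, 1 and 6 counts under sh-NC against 11, 6 and 5 counts under sh-IGF2BP3, too few to test. Per length, PSMB8, PSMB9 and PSMB10 together made 0.734% to 1.16% of the summed FPKM of the 6 proteolytic subunits in sh-NC libraries and 0.758% to 1.12% in sh-IGF2BP3 libraries, ranges that overlapped. PSMB9 also overlaps TAP1 on the opposite strand over 54.8% of its span, and TAP1 had a mean of 754 counts against 54.3 for PSMB9.

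**Figure D4:**
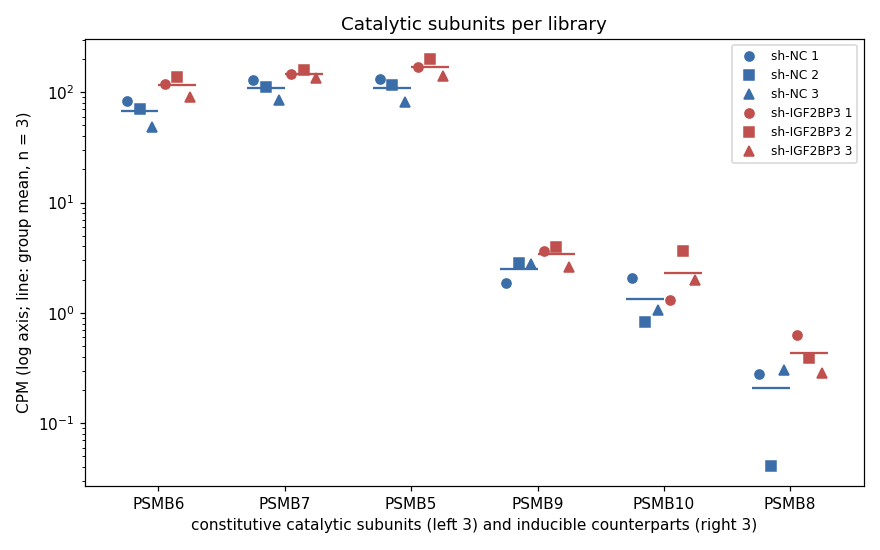
CPM on a log axis for the constitutive proteolytic subunits PSMB6, PSMB7 and PSMB5 and for their inducible counterparts PSMB9, PSMB10 and PSMB8, with 1 marker per library and a line at each group's mean (n = 3). The constitutive genes lie between 48.7 and 199 CPM with red markers above blue ones, and the inducible genes lie under 4 CPM with the groups overlapping.

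The alpha ring forms the gate of the barrel and was less uniform. Its median log2 fold change was 0.26 over 7 tested genes, 6 of them above 0, 1 higher at an unadjusted p under 0.05 and 0 without overlap. That 1 of 7 was near the 13.6% of all genes higher at that p, and 13.2% of all genes were higher without overlap. The ring's median was 0.43 without sh-NC 1, 0.12 without sh-NC 3 and 0.16 without sh-IGF2BP3 2. PSMA7, the most abundant alpha transcript here (ENSG00000101182; chromosome 20, 62136733 to 62143440, minus strand), read 171, 122 and 82.6 CPM under sh-NC and 216, 232 and 164 CPM under sh-IGF2BP3. sh-NC 1 lay above sh-IGF2BP3 3, and the log2 fold change was 0.70 (SE 0.24, edgeR adjusted p = 0.131). PSMA3, PSMA4 and PSMA5 had log2 fold changes of 0.20, 0.20 and 0.30. PSMA2 was the only alpha gene below 0, at −0.29 (SE 0.38), on 47 to 78 counts in sh-NC and 22 to 51 in sh-IGF2BP3 libraries. With GC and length trends removed the ring's median was 0.45. PSMA3, PSMA4 and PSMA5, at 36.7% to 42.1% GC, read 0.40, 0.45 and 0.59, each at an unadjusted p under 0.05, while PSMA7, at 55.5% GC, read 0.43 and was not.

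The ATPase ring of the base, whose subunits unfold the substrate, stood close to the beta ring. All 6 genes were above 0 with a median log2 fold change of 0.55, 4 were higher at an unadjusted p under 0.05 and PSMC1, PSMC3 and PSMC5 did not overlap. Of all genes, 13.6% were higher at that p and 13.2% were higher without overlap. PSMC3, the ATPase with the highest level (ENSG00000165916; chromosome 11, 47418769 to 47426473, minus strand), read 122, 97.0 and 65.2 CPM under sh-NC and 158, 177 and 135 CPM under sh-IGF2BP3. Every sh-IGF2BP3 library was above every sh-NC library, and the log2 fold change was 0.73 (SE 0.22, edgeR adjusted p = 0.117). PSMC4 and PSMC1 followed at 0.61 and 0.58, and PSMC2 and PSMC6 were lowest at 0.24 and 0.17. Those last 2 have the lowest GC content of the ring, 38.9% and 38.8%, and read 0.46 and 0.39 with the trends removed. PSMC3 and PSMC4, at 56.2% and 55.0% GC, then read 0.43 and 0.35 and were no longer at an unadjusted p under 0.05, and the ring's median was 0.44. The count at an unadjusted p under 0.05 was 5 without sh-NC 1, where 17.7% of all genes were higher, and 1 each without sh-NC 2, sh-NC 3 and sh-IGF2BP3 2, where 7.02%, 7.58% and 7.53% were. It was 4 each without sh-IGF2BP3 1 and sh-IGF2BP3 3, where 8.74% and 14.3% of all genes were.

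The non-ATPase subunits of the base dock ubiquitin and its shuttles. PSMD4, a ubiquitin receptor, read 151, 126 and 103 CPM under sh-NC and 186, 198 and 150 CPM under sh-IGF2BP3, overlapping by a narrow margin between sh-NC 1 and sh-IGF2BP3 3, with a log2 fold change of 0.49 (SE 0.20, edgeR adjusted p = 0.17). PSMD2, the most abundant proteasome transcript, read 785, 635 and 455 CPM against 692, 702 and 736 CPM. The 3 sh-IGF2BP3 values of PSMD2 lay close together inside the sh-NC range, and the log2 fold change was 0.18 (SE 0.21, edgeR adjusted p = 0.631). Without sh-NC 3 it was −0.02. PSMD1, a scaffold of the base, had a log2 fold change of −0.11 (SE 0.20). The class median was 0.18, and 0.04 with the trends removed, when PSMD4 read 0.30. It was 0.39 without sh-NC 1 and −0.02 without sh-NC 3.

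The lid, which carries the deubiquitinase, had 8 of 8 genes above 0 with a median log2 fold change of 0.31. Of these, 1 was higher at an unadjusted p under 0.05, and PSMD3, PSMD8 and PSMD13 did not overlap. That 1 of 8 was near the 13.6% of all genes higher at that p, and 13.2% of all genes were higher without overlap. PSMD8, a structural lid subunit, read 124, 103 and 69.6 CPM under sh-NC and 138, 141 and 127 CPM under sh-IGF2BP3. The margin between sh-NC 1 and sh-IGF2BP3 3 was small, and the log2 fold change was 0.45 (SE 0.21, edgeR adjusted p = 0.223). With the trends removed PSMD8 read 0.20 and was no longer at an unadjusted p under 0.05. PSMD3, a scaffold of the lid, read 267, 206 and 152 CPM against 297, 269 and 272 CPM, again apart by little, with a log2 fold change of 0.42 (SE 0.21, edgeR adjusted p = 0.251). PSMD14, the deubiquitinase itself, read 0.26 (SE 0.20). At 32.0% GC it was the proteasome gene poorest in GC, and with the trends removed it read 0.64, at an unadjusted p under 0.05. The lid's median was then 0.34, and it was 0.14 without sh-NC 3 when no trend was removed.

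The chaperones that assemble the particle differed among themselves. Among those of the base, PSMD9 read 8.63, 5.58 and 5.88 CPM under sh-NC and 8.86, 9.48 and 9.43 CPM under sh-IGF2BP3. It did not overlap, by a narrow margin of 153 counts in sh-NC 1 against 155 in sh-IGF2BP3 1. The log2 fold change was 0.47 (SE 0.27, edgeR adjusted p = 0.313). PSMD9 is among the genes whose level was called uncertain above, and 13.2% of all genes were higher without overlap. PSMD10, also known as gankyrin, read 41.3, 42.1 and 37.6 CPM against 38.0, 41.3 and 44.1 CPM, and its groups were intermixed, with a log2 fold change of 0.03 (SE 0.18, edgeR adjusted p = 0.938). PSMD5 was below 0, at −0.14 (SE 0.19). Among the chaperones of the core, PSMG3 read 22.8, 18.1 and 14.8 CPM against 32.5, 35.8 and 23.1 CPM, without overlap by a narrow margin, at a log2 fold change of 0.71 (SE 0.23, edgeR adjusted p = 0.124). PSMG1 read 45.5, 39.6 and 28.0 CPM against 39.7, 55.5 and 49.9 CPM, overlapping, at 0.36 (SE 0.22, edgeR adjusted p = 0.337). PSMG2 and PSMG4 were at 0.06 and 0.05. The class medians were 0.03 for the base and 0.21 for the core chaperones, and 0.18 and 0.15 with the trends removed, when PSMG3 read 0.30. With 1 library left out they ran from −0.04 without sh-NC 3 to 0.09 without sh-IGF2BP3 1 for the base, and from 0.09 to 0.34 without the same libraries for the core.

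The activators open the gate without needing the ATPases, and PSMF1 is an inhibitor of the core. The median log2 fold change of these 5 genes was 0.29, and 0.30 with the trends removed. It was 0.49 without sh-NC 1 and 0.12 without sh-NC 3. PSME1, which forms the interferon-inducible PA28 ring with PSME2, read 63.1, 53.8 and 52.9 CPM under sh-NC and 86.9, 93.5 and 59.1 CPM under sh-IGF2BP3. sh-IGF2BP3 3 lay within the sh-NC range, and the log2 fold change was 0.50 (SE 0.20, edgeR adjusted p = 0.172), or 0.30 with the trends removed. PSME2 had 0.39 (SE 0.19) and did not overlap. PSME3, the nuclear activator, read 250, 204 and 158 CPM against 187, 224 and 250 CPM, with the groups interleaved and a log2 fold change of 0.11 (SE 0.21, edgeR adjusted p = 0.775). PSME4, the activator known as PA200, was the farthest below 0 of the 45 genes: it read 177, 194 and 176 CPM against 104, 132 and 178 CPM. sh-IGF2BP3 3 was level with sh-NC for PSME4, and the log2 fold change of −0.40 (SE 0.21, edgeR adjusted p = 0.261) became −0.08 with the trends removed. Without sh-IGF2BP3 3 its log2 fold change was −0.64 (edgeR adjusted p = 0.106), the 1 proteasome gene then lower at an unadjusted p under 0.05.

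The log2 fold changes went with GC content, with exceptions. Across the 45 genes the log2 fold change and the GC content of the longest transcript had a Spearman correlation of 0.63, close to the 0.61 over 16236 tested genes with a known GC content; these are descriptions over genes that share the same libraries. PSMG2, PSMG4 and PSMD2, at 52.2%, 52.6% and 54.3% GC, read only 0.06, 0.05 and 0.18, while PSMB1, at 40.7% GC, read 0.50. The 15 genes richest in GC (51.9% to 60.1%) had a median log2 fold change of 0.61, the middle 15 had 0.39, and the 15 poorest (32.0% to 43.6%) had 0.20. At an unadjusted p under 0.05 the numbers higher were 10, 4 and 1. With GC and length trends removed they were 3, 4 and 8, and the medians were 0.30, 0.39 and 0.45. The total at an unadjusted p under 0.05 was thus 15 under both treatments, with 0 lower, against 6.77% of all genes higher and 3.65% lower after removal, but only 7 genes were in both sets, namely PSMB1, PSMB3, PSMB4, PSMB5, PSMB6, PSMC1 and PSMC5. The median over all 45 was 0.39 after removal, with 42 above 0, where 51.4% of all genes were. With the GC trend alone removed, 19 were higher and 0 lower at an unadjusted p under 0.05, where 7.04% of all genes were higher, and 9 of the 19 were among the 15 found without removal. Which genes had an unadjusted p under 0.05 thus differed among the 3 treatments, while the median over the 45 genes lay above that of all genes in each.

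**Figure D5:**
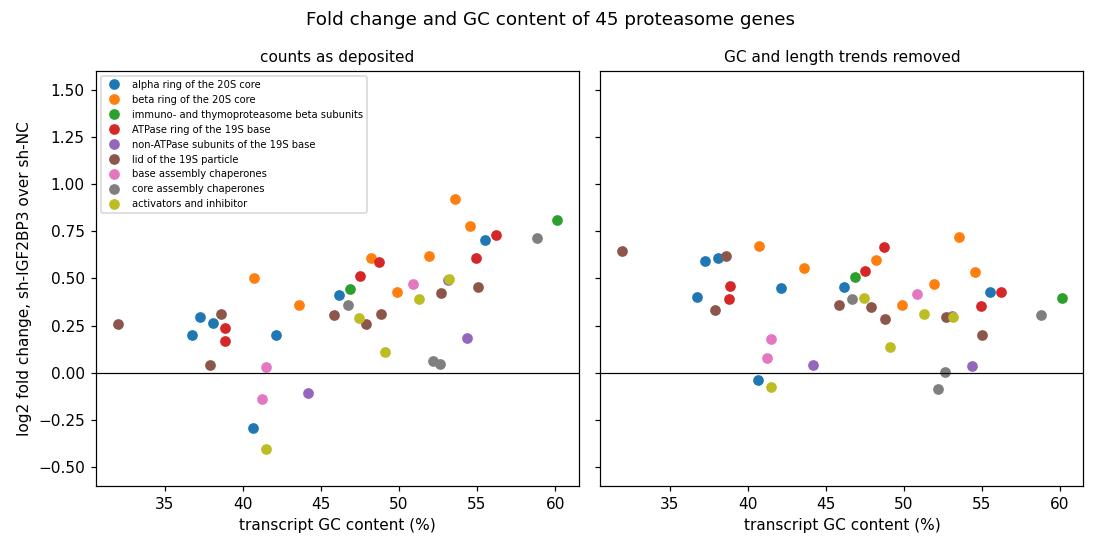
Log2 fold change of sh-IGF2BP3 over sh-NC against transcript GC content in percent for the 45 tested genes, coloured by class, from the counts as deposited (left) and with each library's GC and length trends removed (right). On the left, values tend to climb with GC content (Spearman correlation 0.63). On the right they no longer climb, and 42 of 45 lie above 0.

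Promoters were read for motifs known from proteasome genes, because most of these genes lay on the same side of 0. RefSeq windows of GRCh38.p14, from 250 bases before to 50 after the start, were matched for 42 of the 48 genes and searched on both strands. The core letters of the antioxidant response element, TGACNNNGC, were in 13 of 42 (31.0%), against 13.6% of 27305 promoters. The ETS letters CCGGAAG were also in 13 (31.0%, against 10.7%), the CCAAT box in 19 (45.2%, against 35.7%), the interferon response letters GAAANNGAA in 7 (16.7%, against 8.29%) and the GAS letters TTCNNNGAA in 5 (11.9%, against 7.88%). The first 2 of the sequences shown are antioxidant response matches in PSMB3, which had the farthest log2 fold change, and in the lid gene PSMD3. The other 4 hold GAAAGCGAA, the form that GAAANNGAA took most often here, in PSMB10, in both PA28 genes and in PSMG4. That form was picked from these same promoters, so its share is not compared with that of others. Each line gives 10 bases on either side of the match, on the gene's own strand, with the match in capitals. In PSME1 the match reads on the other strand.
PSMB3 (chr17:38752627-38752655): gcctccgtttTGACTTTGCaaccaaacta
PSMD3 (chr17:39980760-39980788): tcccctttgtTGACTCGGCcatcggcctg
PSMB10 (chr16:67936853-67936881): gggtaaaggcGAAAGCGAAagcaggaagt
PSME2 (chr14:24146620-24146648): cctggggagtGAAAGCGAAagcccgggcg
PSME1 (chr14:24136190-24136218): ccctaccgctTTCGCTTTCccttcgcggt
PSMG4 (chr6:3258904-3258932): ttccggggccGAAAGCGAAagcgcgctcg
The 13 tested genes with an antioxidant response match had a median log2 fold change of 0.39 and the 26 without one 0.29. Among those with the match, PSMD1, PSMD5 and PSME4 lay below 0, at −0.11, −0.14 and −0.40, and the other matched genes lay above 0. With an ETS match the medians were 0.28 against 0.36, with a CCAAT box 0.34 against 0.26, with GAAANNGAA 0.39 against 0.30 and with the GAS letters 0.27 against 0.30. No trend was removed for these medians, and they leave out the tested genes whose promoter was not matched. Those were PSMA7, PSMB1, PSMB6, PSMB7, PSMD4 and PSMG3, at log2 fold changes of 0.70, 0.50, 0.77, 0.43, 0.49 and 0.71. Each lay above the median of 0.36 over the 45 tested genes. These letters mark a place in the window and not a bound factor, and the medians are descriptions.

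Genes that work with the proteasome but carry other symbols were read from 4 lists. Of 10 further subunits, assembly factors and associated proteins, 3 were higher at an unadjusted p under 0.05 and 0 lower. Over all genes, 13.6% were higher and 8.54% lower at that p. The median log2 fold change was 0.25. The 3 were ADRM1, a ubiquitin receptor of the base, at 1.03, SEM1, a small lid subunit, at 0.56 and POMP, the maturation factor of the core, at 0.51. ADRM1 read 104, 61.2 and 45.1 CPM under sh-NC and 163, 168 and 98.4 CPM under sh-IGF2BP3, overlapping as PSMB3 did. UCHL5 and USP14, the deubiquitinases that associate with the base, read −0.25 and −0.11, and ECPAS and UBE3C read −0.21 and −0.13. The other 6 of the 10 were above 0. With the trends removed the median was 0.32, ADRM1 read 0.43, and SEM1 and POMP read 0.86 and 0.74.

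In the NFE2L1 and NFE2L2 pathway the median over 9 genes was 0.26. At an unadjusted p under 0.05, 3 were higher and 0 lower, where 13.6% of all genes were higher and 8.54% lower. NFE2L1 itself read 344, 341 and 299 CPM under sh-NC and 429, 389 and 358 CPM under sh-IGF2BP3, without overlap, at 0.26 (SE 0.18, edgeR adjusted p = 0.412). NFE2L2 read −0.32 (SE 0.22), and KEAP1, which holds NFE2L2 in check, 0.70 (SE 0.28). MAFF and MAFK, small partners of both factors, read 1.13 (SE 0.43) and 1.01 (SE 0.32). MAFF, MAFK and KEAP1 were the 3 genes at an unadjusted p under 0.05, and the groups overlapped in each. With the trends removed the median was 0.16 and 0 of the 9 were higher or lower at an unadjusted p under 0.05, against 6.77% and 3.65% of all genes.

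Of 13 genes for ubiquitin supply and shuttling, 4 were higher and 1 lower at an unadjusted p under 0.05, with a median of 0.27. Of all genes, 13.6% were higher and 8.54% lower at that p. UBB, a polyubiquitin gene, read 299, 278 and 215 CPM against 605, 616 and 328 CPM, without overlap, at 0.97 (SE 0.24, edgeR adjusted p = 0.103). RPS27A, which encodes ubiquitin fused to a ribosomal protein, read 0.56. UBA6, an activating enzyme, was lower at −0.58 and read −0.12 with the trends removed. The median was then 0.26 and 4 were higher and 0 lower, where 6.77% of all genes were higher and 3.65% lower. Of 13 interferon and class I partners, against 13.6% and 8.54% of all genes, 1 was higher and 0 lower with a median of 0.02. That gene was HLA-C at 0.84, while IRF1, an interferon-inducible transcription factor, read 0.42, and TAP1, the peptide transporter subunit beside PSMB9, read 0.16. With the trends removed the median was −0.03, and HLA-C read 0.29 and was no longer at an unadjusted p under 0.05. The 1 gene that was then lower at that p was HLA-B, at −0.57, while 0 were higher, against 3.65% of all genes lower and 6.77% higher.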

How the data were processed

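RNA from 3 sh-NC and 3 sh-IGF2BP3 libraries of HCT116 cells was measured by RNA-seq. The authors deposited raw counts per gene and FPKM values on GRCh38. Each deposited FPKM is the count over the library total and a gene length equal in all libraries. The labels name CASAVA; aligner, counter, multi-mapping and strand are not given in the sources used here.

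The test was that of edgeR 4.0.16 in R 4.3.3 (filterByExpr, TMM, glmQLFTest, BH), the thresholds being those of the study. Alternatives used DESeq2 1.42.0, limma 3.58.1 on log2(FPKM + 1) or log2(FPKM + 0.1), other scalings and filters, splines with 5 degrees of freedom on GC content and length, and each library left out. Log2 CPM used a prior count of 2. Scripts were tested on simulated counts. GC content was known for 96.9% of tested genes. Depth was 16146718 to 23576469 counts, and the closest libraries differed beyond counting noise (chi-square 10.1 per degree of freedom).

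The genes, classes and lists were chosen with earlier results of these data known. Values per library are given for the proteolytic subunits, IGF2BP3 and, in each class, the tested genes with the largest change, smallest p and highest FPKM, and list genes are named at an unadjusted p under 0.05, some of which are not reported here. PSME4, NFE2L1 and other genes named singly were chosen after their values were seen.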

Additional observations from a re-analysis of the deposited data

How the results depend on the processing

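The median log2 fold change of the proteasome genes stayed above 0 under every alternative. DESeq2 called 562 genes higher and 137 lower over all genes, and 2 proteasome genes higher. Without a filter on low counts edgeR called 687 and 150, and 3 proteasome genes higher (PSMB3, PSMB6 and PSMC3). RLE scaling and a minimum of 10 counts each called 1 gene higher, and limma on log2(FPKM + 1) called 1 lower. At an unadjusted p under 0.05, 1 proteasome gene was lower under upper-quartile scaling and in each limma setting. The causes were not tested.

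With 1 library left out, genes called ranged from 0 to 1739 higher and 0 to 985 lower, proteasome genes called higher from 0 to 13, those higher at an unadjusted p under 0.05 from 4 to 26, those lower from 0 to 1, and the median from 0.16 to 0.49. The largest counts came without sh-NC 1. With GC and length trends also removed, 682 and 161 genes and 11 proteasome genes were called without sh-NC 1, where the median was 0.60, and 3 genes were called higher without sh-IGF2BP3 3. The numbers higher at an unadjusted p under 0.05 were then 33, 8 and 8 without sh-NC 1, 2 and 3 (15.7%, 3.54% and 3.4% of all genes), and 12, 4 and 15 without sh-IGF2BP3 1, 2 and 3 (5.42%, 2.23% and 7.09%). Leaving out 1 library gave log2 fold changes of −0.041 to 0.086 for PSMD10, −0.022 to 0.39 for PSMD2 and −0.063 to 0.29 for PSME3. With trends removed PSMD2 read −0.16 and PSME3 −0.036 without sh-NC 3, and leaving out sh-IGF2BP3 3 gave −0.035 for PSMD2. PSMD10 was also below 0 under upper-quartile scaling (−0.029), limma on log2(FPKM + 1) with or without the filter (−0.046) and limma on log2(FPKM + 0.1) (−0.049). Over the named genes, 444 values under alternatives kept direction and side of the threshold, 15 newly passed it and 12 changed sign.

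The replicate numbers did not pair the libraries: same-numbered libraries correlated at −0.28 to −0.04, and 0 of 6 correlated best with their own number. With the replicate number as a block, 0 proteasome genes were called, 16 were higher at an unadjusted p under 0.05 (12.6% of all genes) and the median was 0.37. Depth limits PSMB8, PSMB11 and PSMA8, which could not be compared.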
